A study of Mus musculus with 3 samples.

Results

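The genes described here are those that microglia, the resident macrophages of the brain, are known to switch on around damage. The list of 10 holds Apoe, Trem2, Tyrobp, Spp1, Gpnmb, Lpl, Cst7, Clec7a, Axl and Fabp5, named by symbol in the gene table of the series. The 9 of them other than Clec7a were measured, of 17551 genes in the table, and Clec7a is not analysed here. The study is a CITE-seq experiment, which reads the RNA of single cells together with DNA-barcoded antibodies bound to their surface. The brains came from female C57Bl/6 mice of 2 to 3 months and were either naive or carried metastases grown from E0771 cells, a mammary carcinoma line of the same strain that was injected into the carotid about 2 weeks earlier. Each of the 4 perfused brains went through papain digestion and a Percoll gradient that enriches mononuclear cells, and was stained with 6 antibodies and with its own hashtag, and pooled with the others into 1 run that gave an RNA, an antibody-tag and a hashtag library. Which hashtags mark naive and which mark metastatic brains is not stated in the sources used here, so the brains are named by hashtag and no condition was compared. Each hashtag stands for 1 animal.

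Disease-associated microglia are known from mouse models of neurodegeneration, where cells near a lesion lower their homeostatic genes and raise genes for lipid uptake, lysosomal digestion and adhesion. Trem2, a surface receptor for lipids and lipoproteins, signals through the adaptor Tyrobp and is needed for the later part of this change. Several of these genes are not particular to microglia: macrophages that enter the brain from blood, fibroblasts and tumour cells are known to use Spp1, Gpnmb, Apoe or Axl as well.

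The table held 4668 cells in 11 deposited clusters, with 2495 to 43038 unique molecular identifiers (UMIs, each 1 captured RNA molecule) per cell and a median of 9472. Cluster 3 was the main source of the listed genes. It held 404 cells, of which 21, 34, 155 and 194 carried hashtags 1 to 4, at a median of 3815 UMIs. Its median CD45 tag count, CD45 being the surface marker of blood-derived and immune cells, was 7090, against 2908 in cluster 6 and 31 to 69 in the other clusters. It was not purely microglial: markers of microglia (8 genes) summed to 20.8 UMIs per 10000, those of marrow-derived monocytes and macrophages (7 genes) to 36.9, those of neutrophils to 43.3 and those of border macrophages to 9.97. The microglia markers were higher in the cluster 3 cells of hashtags 1 and 2, at 46.9 and 55.4 per 10000, than in those of hashtags 3 and 4, at 15.1 and 16.4, and the marrow markers ran the other way, at 19.7, 12.6, 36.2 and 43.5. The share of a cell's hashtag counts that came from its own hashtag also differed, with medians of 74.5%, 82.3%, 95.7% and 97.5% in cluster 3 for hashtags 1 to 4, so the hashtag 1 and 2 cells were assigned less cleanly. RNA from other cells was present too: choroid plexus markers summed to 222 per 10000 in cluster 3 and to 3199 in cluster 1.

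All 9 genes are protein coding, and their positions on mouse build GRCm38 (mm10) are as follows. Trem2 lies at chr17:48346401-48352276, Tyrobp at chr7:30413782-30417582, Apoe at chr7:19696244-19701310 and Lpl at chr8:68880555-68906932. Fabp5 lies at chr3:10012585-10016610, Axl at chr7:25756500-25788924 and Cst7 at chr2:150570415-150578944. Spp1 lies at chr5:104435111-104441053 and Gpnmb at chr6:49036518-49058182. The 250 bases before the start of 3 genes are shown, because Trem2 was detected in most cluster 3 cells while Spp1 and Gpnmb marked a smaller set of them. RefSeq entries on GRCm38.p6 were found for 6 of the 9 genes, and the reference used held none for Tyrobp, Lpl and Fabp5. Those of Apoe, Axl and Cst7 are not shown. All 3 genes shown lie on the plus strand, and capitals mark matches to the motifs named after the sequences.
Trem2, chr17:48346151-48346400: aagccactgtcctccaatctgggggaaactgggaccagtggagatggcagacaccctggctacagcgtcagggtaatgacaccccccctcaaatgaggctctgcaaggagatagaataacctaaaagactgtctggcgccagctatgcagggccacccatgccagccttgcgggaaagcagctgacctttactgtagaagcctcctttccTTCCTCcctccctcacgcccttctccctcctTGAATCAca
Spp1, chr5:104434861-104435110: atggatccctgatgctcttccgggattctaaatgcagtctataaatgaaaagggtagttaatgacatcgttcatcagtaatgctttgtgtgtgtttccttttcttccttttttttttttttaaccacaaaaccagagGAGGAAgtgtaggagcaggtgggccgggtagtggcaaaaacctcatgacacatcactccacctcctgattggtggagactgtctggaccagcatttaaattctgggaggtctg
Gpnmb, chr6:49036268-49036517: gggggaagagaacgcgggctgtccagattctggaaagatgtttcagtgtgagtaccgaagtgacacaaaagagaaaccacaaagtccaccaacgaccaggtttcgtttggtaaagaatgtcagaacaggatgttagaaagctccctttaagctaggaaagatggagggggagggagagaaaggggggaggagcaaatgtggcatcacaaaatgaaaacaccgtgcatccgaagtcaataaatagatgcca
The motifs searched on both strands were the core GAGGAA of PU.1, the main transcription factor of macrophages, the E-box CACGTG and the M-box core CATGTG read by factors of the lysosomal and pigment cell programme, and the AP-1 site TGANTCA. Counting -1 as the base just before the start, the Spp1 window shown held a PU.1 core at position -113. A second RefSeq window of Spp1, chr5:104435942-104436191, held none of the 4 motifs. The Trem2 window held a PU.1 core on the reverse strand at -40 and an AP-1 match at -9, and the Gpnmb window held none of the 4. Of 32851 mouse windows of this length, 23.25% held the PU.1 core, 6.02% the E-box, 12.25% the M-box core and 6.75% the AP-1 site, so such matches are common and describe only these letters.

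Across clusters, 8 of the 9 genes had their highest mean in cluster 3, and Cst7 had it in cluster 6. Means are UMIs per 10000 UMIs of a cell, averaged over the cells of a cluster. The clusters were made from the RNA of the same cells, so these levels are a description with no test.

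**Figure D1:**
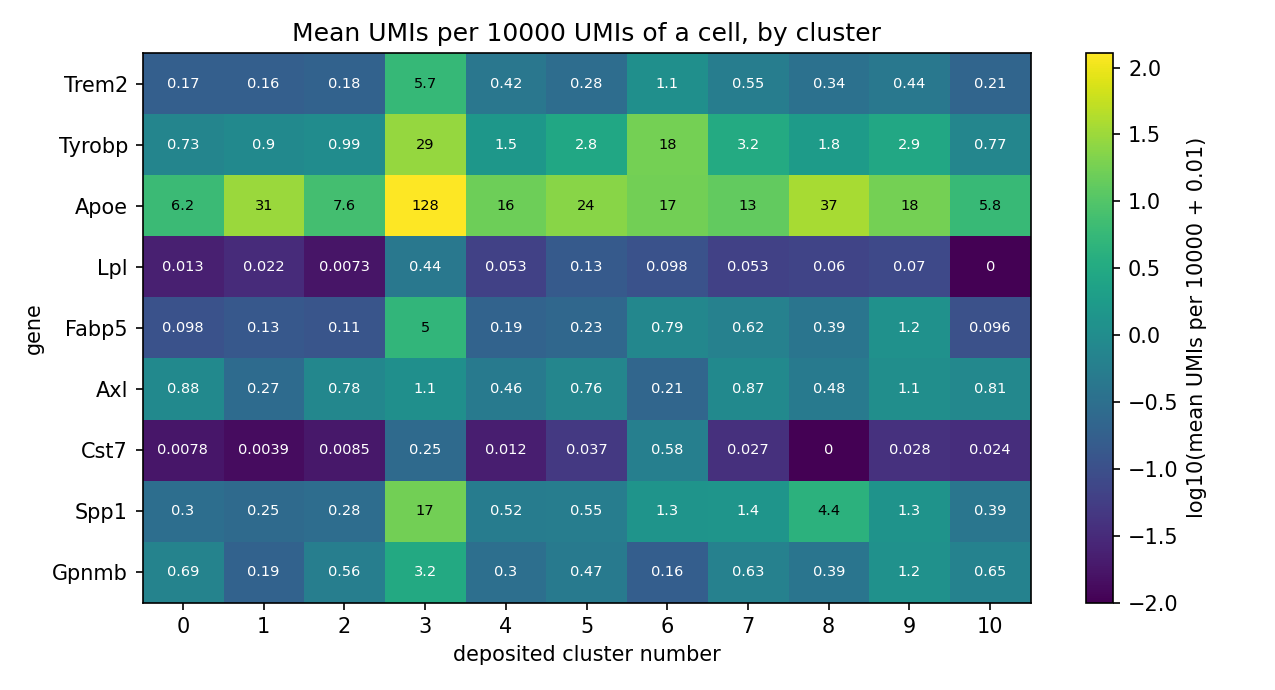
Mean UMIs per 10000 for the 9 genes (rows) in the 11 deposited clusters (columns), colour on a log10 scale and the mean printed in each cell of the map. Cluster 3 is the brightest column for every gene but Cst7, and Axl and Gpnmb show the flattest rows.

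Trem2 averaged 5.72 UMIs per 10000 in cluster 3, against 1.09 in cluster 6 and at most 0.55 elsewhere. With every cell thinned to 2495 UMIs, the lowest total of any cell, a Trem2 UMI was found in 59.9% of cluster 3 cells, against 18.8% in cluster 6 and 4.30% in cluster 0. Without thinning those shares were 73.8%, 26.0% and 17.7%, at median depths of 3815, 3715 and 13009 UMIs. Tyrobp, the adaptor that also serves other receptors of myeloid and natural killer cells, averaged 29.1 in cluster 3 and 17.8 in cluster 6, whose neutrophil markers summed to 805 per 10000, and at most 3.21 elsewhere. Both genes of the pair therefore stood highest in the clusters with high CD45 tags, Trem2 mainly in cluster 3 and Tyrobp in clusters 3 and 6.

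The lipid genes differed among themselves. Apoe, the main lipid carrier protein of the brain, averaged 128 UMIs per 10000 in cluster 3 (median of its cells 79.1), against 36.9 in cluster 8 and 31.1 in cluster 1. It was found in at least 93.7% of the cells of every cluster, and after thinning still in 74.4% of cluster 0 cells, so its detection alone separates few cells. Fabp5, a carrier of fatty acids inside the cell, averaged 5.05 in cluster 3, 1.18 in cluster 9 and 0.79 in cluster 6. Without the 5 highest cells of each cluster these means were 4.335, 0.28 and 0.58. Lpl, the lipase that releases fatty acids from lipoproteins, was sparse, at 0.44 in cluster 3 with 77 UMIs in 51 of 404 cells, and at most 0.13 elsewhere.

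Axl, a receptor tyrosine kinase through which phagocytes bind dying cells, was not set apart by cluster 3. It averaged 1.11 UMIs per 10000 there, 1.05 in cluster 9, 0.88 in cluster 0, 0.87 in cluster 7 and 0.81 in cluster 10. After thinning, an Axl UMI was found in 20.8% of cluster 3 cells, 20.4% of cluster 9 cells, 18.6% of cluster 0 cells and 21.4% of cluster 10 cells, and in 4.93% of cluster 6 cells. Taken as the median of brains with at least 20 cells, the order was cluster 9 (1.02), cluster 7 (0.91), cluster 3 (0.86) and cluster 0 (0.85), and neighbours in that order overlapped in their ranges.

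Spp1, the secreted matrix protein osteopontin, averaged 16.9 UMIs per 10000 in cluster 3 and 4.35 in cluster 8, and at most 1.37 elsewhere. The cluster 8 mean rested on few cells: 1 cell of the hashtag 4 brain held 236 of its 347 Spp1 UMIs, and without the 5 highest cells the mean was 0.61. Gpnmb, a membrane glycoprotein of lysosomes and melanosomes, averaged 3.16 in cluster 3, 1.18 in cluster 9, 0.69 in cluster 0 and 0.65 in cluster 10. Without the 5 highest cells of a cluster, its mean was 2.48 in cluster 3 and 0.33 in cluster 9. After thinning, Gpnmb was found in 25.3% of cluster 3 cells, 13.7% of cluster 0 cells and 11.97% of cluster 10 cells, but in 4.09% of cluster 1 cells and 4.93% of cluster 6 cells, so the low shares outside cluster 3 were not uniform. Clusters 0, 2 and 7 had the highest sums of mammary carcinoma markers, at 7.62, 7.79 and 7.76 per 10000, against 1.27 in cluster 3.

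Cst7, which encodes cystatin F, an inhibitor of lysosomal proteases that cytotoxic lymphocytes also make, averaged 0.25 UMIs per 10000 in cluster 3 and 0.58 in cluster 6. In cluster 3 it had 46 UMIs in 40 cells. Of the 142 cluster 3 cells with at least 2 UMIs of T or natural killer cell markers, 23 held a Cst7 UMI (16.2%), against 17 of the other 262 cells (6.49%). Median depth also differed, at 4305 UMIs in the first and 3642 in the others, and the part of either in the difference was not tested. In cluster 6, the cluster with high neutrophil markers, 9 of 40 cells with at least 2 such UMIs held Cst7 (22.5%). Its cells with fewer than 2 gave 25 of 183 (13.7%). Among its hashtag 1 cells these counts were 0 of 15 and 20 of 156, while the other brains ran the other way on few cells.

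Within each brain, cluster 3 was above every other cluster of at least 20 cells for Trem2, Tyrobp, Apoe, Fabp5, Spp1 and Gpnmb, in 4 of 4 brains each. Among smaller clusters of the hashtag 2 brain, Fabp5 averaged 1.62 in cluster 6 (4 UMIs, 9 cells) and 1.38 in cluster 8 (7 UMIs, 17 cells). Both were above the 0.41 of cluster 3 there. Some of the cluster 3 means rested on few cells. Without the 5 highest cells of cluster 3, Fabp5 and Gpnmb were at 0 in the hashtag 1 and 2 brains, and Spp1 was at 0 in the hashtag 1 brain. The ratio of cluster 3 to the next highest cluster was 7.01, 19.0, 5.26 and 9.68 for Trem2 in the hashtag 1, 2, 3 and 4 brains, 2.36, 7.81, 1.85 and 2.28 for Spp1 (the last against cluster 8, whose mean there was 12.2, and 0.20 without its 5 highest cells), and 1.64, 3.41, 3.02 and 4.31 for Apoe. The Lpl mean was below that of cluster 5 in the hashtag 3 brain, where 1 of 55 cluster 5 cells held all 10 UMIs, against 7 UMIs in 7 of 155 cluster 3 cells. Axl was below cluster 9 in the hashtag 1 and hashtag 3 brains. Cst7 was below another cluster of at least 20 cells in every brain but that of hashtag 4. There it averaged 0.34, against 0.69 in the 17 cells of cluster 6, which held 4 Cst7 UMIs. Which clusters reach 20 cells differs between the brains, from 4 others for hashtag 2 to 10 for hashtag 3.

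The brains did not rank alike for these genes within cluster 3. Trem2 averaged 8.83, 10.9, 3.91 and 5.93 UMIs per 10000 in cluster 3 cells of hashtags 1, 2, 3 and 4, so that the 2 brains with more microglia markers were the higher ones. Tyrobp was nearly level, at 26.0, 26.2, 26.6 and 32.0. Apoe averaged 66.6, 115, 114 and 149, lowest in the hashtag 1 brain.

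Spp1 averaged 2.92, 6.04, 7.53 and 27.9 UMIs per 10000 in the same order, and the exact Poisson 95% intervals of the summed rates were 2.19 to 4.70, 6.76 to 9.84, 6.56 to 7.86 and 32.7 to 35.2. The intervals cover counting error only. A few cells carried much of the Spp1 RNA: the highest cell held 23 of 29 UMIs in the hashtag 1 brain, 97 of 114 in the hashtag 2 brain, 66 of 484 in the hashtag 3 brain and 444 of 2812 in the hashtag 4 brain. Without the 5 highest cells of each brain the means were 0, 0.46, 5.01 and 17.9, and the hashtag 4 brain remained the highest.

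Fabp5 averaged 2.91, 0.41, 2.34 and 8.26 UMIs per 10000, and Gpnmb 3.08, 0.90, 1.65 and 4.77. In the hashtag 1 brain these rested on 3 and 2 cells, and the single Fabp5-positive cell of the hashtag 2 brain held all 9 of its UMIs. Without the 5 highest cells of each brain both genes were at 0 in the hashtag 1 and 2 brains, and at 1.62 and 6.84 for Fabp5 and 0.92 and 3.63 for Gpnmb in the hashtag 3 and 4 brains. In cells with at least 80% of hashtag counts from their own hashtag, the median over the 4 brains was 1.10 for Fabp5 and 0.71 for Gpnmb, against 2.63 and 2.36 over all cells.

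The sparse genes were Lpl, at 0.22, 0.54, 0.12 and 0.70 UMIs per 10000, Axl, at 0.29, 1.06, 0.66 and 1.56, and Cst7, at 0.06, 0.05, 0.22 and 0.34. The hashtag 4 brain was highest for 8 of the 9 genes, all but Trem2. Counting intervals of the hashtag 1 and hashtag 2 brains were wide for these 3 genes, as for Cst7 with 1 UMI in each.

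**Figure D2:**
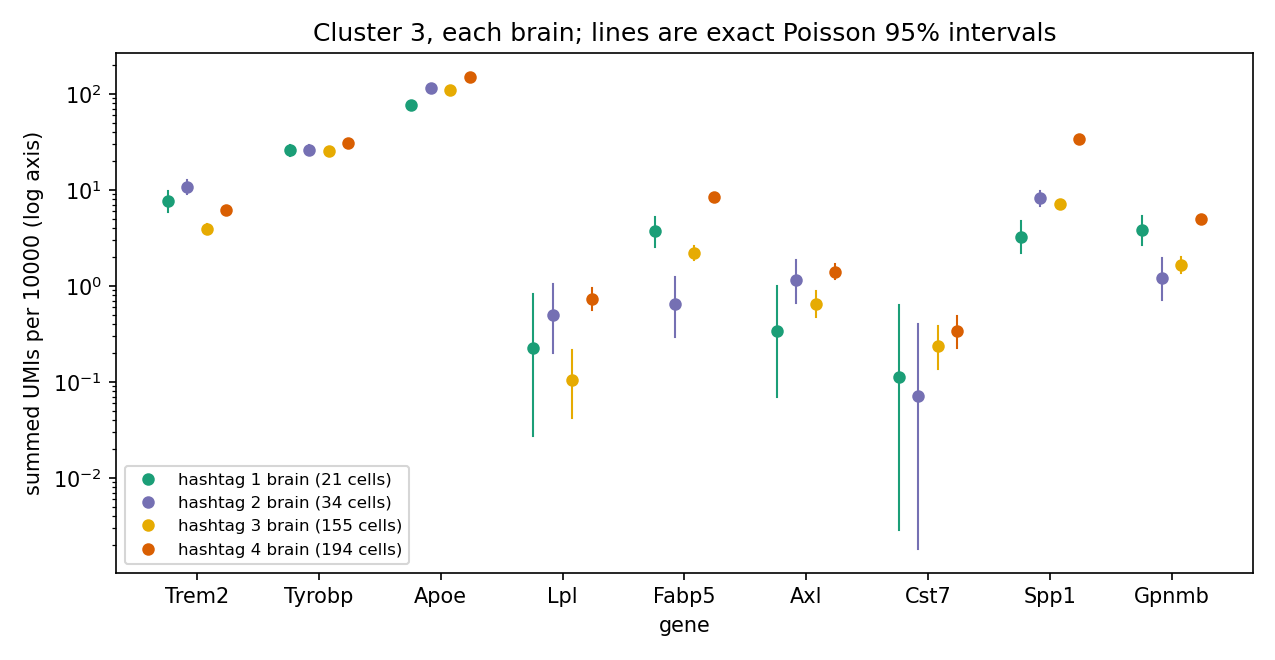
Summed UMIs per 10000 (log axis) of the 9 genes in cluster 3 cells of each brain, with exact Poisson 95% intervals for counting error. Tyrobp is almost level across the 4 brains, while Spp1 reaches 33.9 in the hashtag 4 brain against 3.27 to 8.19 in the others.

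Within cluster 3 some of the genes were found in most cells and the others in fewer. Tyrobp had a UMI in 99.8% of the 404 cells, Apoe in 99.3% and Trem2 in 73.8%. The other 6 genes were each found in fewer than 50% of cells. Spp1 was found in 47.5%, Fabp5 in 43.1%, Gpnmb and Axl in 31.2% each, Lpl in 12.6% and Cst7 in 9.90%. Detection also depends on the amount of RNA, so a low share alone does not mean uneven expression. The cells held 992 UMIs of Trem2 and 3439 of Spp1, but 180 of Axl and 46 of Cst7. Counting all 9 genes, a cell held on average 3.57, 3.82, 4.21 and 4.92 of them in the hashtag 1, 2, 3 and 4 brains. Of the 6 less often detected genes, 3 or more were found in 2 of 21, 3 of 34, 28 of 155 and 78 of 194 cells. These shares were 9.52%, 8.82%, 18.1% and 40.2%. After thinning to 1 depth the shares were 9.52%, 5.88%, 10.3% and 32.5%, with the hashtag 4 brain still the highest. Only 1 of the 404 cells, in the hashtag 4 brain, held all 6.

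**Figure D3:**
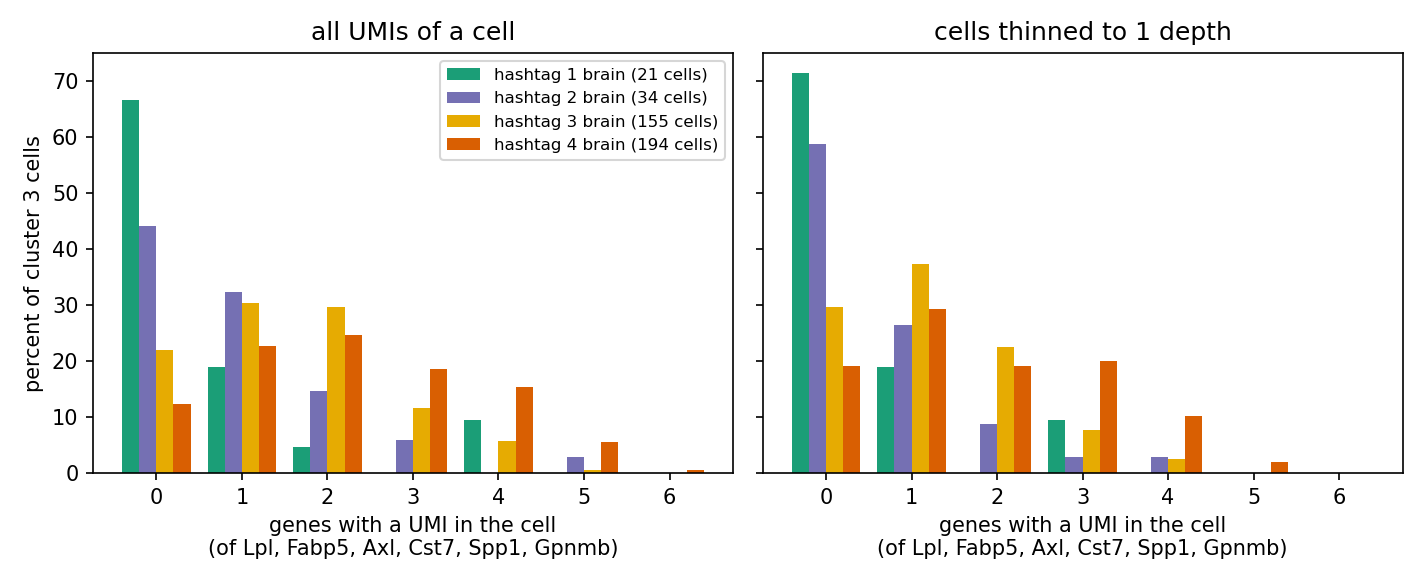
Percent of cluster 3 cells (vertical axis) with 0 to 6 of the genes Lpl, Fabp5, Axl, Cst7, Spp1 and Gpnmb detected (horizontal axis), for each brain, with all UMIs (left) and after thinning every cell to 2495 UMIs (right). In the hashtag 1 and 2 brains 66.7% and 44.1% of cells held none of the 6 at full depth, against 21.9% and 12.4% in the hashtag 3 and 4 brains.

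Spp1, Fabp5 and Gpnmb went together most clearly in the hashtag 4 brain. There, Gpnmb had a UMI in 59 of 105 cells with Spp1 (56.2%), against 18.0% of cells without it, and Spp1 had one in 69.9% of cells with Fabp5, against 32.1% of cells without. Thinned, those shares were 54.6% against 11.3%, and 68.1% against 34.0%. In the hashtag 3 brain Gpnmb went with Fabp5, at 42.1% of cells with Fabp5 against 21.4% of cells without, and 36.7% against 13.2% after thinning. Its link with Spp1 was weak there, at 33.8% against 24.7%, and 22.6% against 19.4% after thinning.

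Lpl joined the same cells in the hashtag 4 brain. Of its 37 cells with Lpl, 81.1% also held Spp1, against 47.8% of cells without Lpl, and 81.1% also held Fabp5, against 52.9%. After thinning the Spp1 shares were 81.5% and 44.9%, and the Fabp5 shares 63.0% and 44.3%. Gpnmb did not go with Axl or Cst7 there: it had a UMI in 37.7% of hashtag 4 cells with Axl, against 39.3% of cells without it, and in 36.4% of cells with Cst7, against 39.0% of cells without it. Spp1 was found in 58.4% of hashtag 4 cells with Axl, against 51.3% of cells without it, and in 57.1% of hashtag 3 cells with Axl, against 45.0%. With Cst7 the Spp1 shares were 54.5% against 54.1% for hashtag 4, and 75.0% (12 of 16 cells) against 44.6% for hashtag 3. These shares describe cells of 1 library and carry no test, since the cells of a brain are not replicates.

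All 3 of Spp1, Fabp5 and Gpnmb were found in 2, 1, 15 and 51 cluster 3 cells of the hashtag 1, 2, 3 and 4 brains, which is 9.52%, 2.94%, 9.68% and 26.3%. After thinning the counts were 1, 1, 9 and 44. The 2 cells of the hashtag 1 brain had a median of 62.0% of hashtag counts from their own hashtag. The set of 3 genes was chosen after their values were seen, and the comparisons of these cells with the rest are descriptions in the hashtag 3 and hashtag 4 brains. Their median depth in these 2 brains was 3795 and 4924 UMIs, against 3703 and 3726 in other cells.

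The cells with all 3 genes carried more RNA of the other listed genes. Values for the hashtag 3 brain come before those for the hashtag 4 brain here. Apoe averaged 148 and 358 UMIs per 10000 in cells with the 3 genes, against 111 and 74.5 in other cells. Trem2 averaged 4.24 and 10.6 in cells with the 3 genes, against 3.87 and 4.25 in other cells, so the gap was wide in the hashtag 4 brain and slight in the hashtag 3 brain. Of the 6 listed genes outside the 3, 5 were higher in both brains, and Cst7 averaged 0.30 and 0.14 in cells with the 3 genes, against 0.21 and 0.41 in other cells. Of all 6676 genes seen in at least 5% of the cells compared, 17.3% were higher in both brains and 35.6% were lower in both.

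Genes of lysosomes and lipid handling went the same way: 14 of 19 were higher in both brains and 1 was lower in both. Ctsd, a lysosomal protease, averaged 20.3 and 59.2 in cells with the 3 genes, against 11.8 and 11.3 in other cells. Npc1, which exports cholesterol from lysosomes, averaged 1.08 and 0.65 in cells with the 3 genes, against 0.35 and 0.20 in other cells. The list's median log2 difference was 0.62, against -0.17 over all genes. Cd68, a lysosomal membrane protein of phagocytes that stands on the list of later disease-associated genes, averaged 7.03 and 10.9 in cells with the 3 genes, against 3.19 and 4.70 in other cells. Igf1, a growth factor made by macrophages and on the same list, averaged 0.34 and 1.80 in cells with the 3 genes, against 0.02 and 0.20 in other cells. The Igf1 means of the hashtag 3 brain rest on few UMIs. Of the 19 later disease-associated genes seen, 10 were higher in both brains and 7 lower, with a median log2 difference of 0.28, and of 12 genes of Trem2 and Tyrobp signalling 1 was higher and 5 lower, with a median of -0.05. Igf1, Cd68 and Npc1 were among the 17 genes (0.255%) that were more than 2-fold higher in both brains, while 140 genes (2.1%) were more than 2-fold lower.

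Homeostatic microglia genes ran lower: 11 of 15 were lower in both brains and 2 higher, with a median log2 difference of -0.62. P2ry12, the purine receptor of resting microglia, averaged 0.26 and 0.40 in cells with the 3 genes, against 0.71 and 0.86 in other cells. Siglech, a sialic acid lectin of microglia, averaged 0.29 and 0.34 in cells with the 3 genes, against 0.62 and 0.79 in other cells. For both genes, the hashtag 3 means of cells with the 3 genes rest on few UMIs. Other cell type markers moved with the same cells. Border macrophage markers (6 genes) summed to 19.1 and 17.1 per 10000 in cells with the 3 genes, against 7.93 and 9.41 in other cells. Markers of marrow-derived cells summed to 41.8 and 14.8 in cells with the 3 genes, against 35.6 and 53.7 in other cells, so they ran opposite ways in the 2 brains. Neutrophil markers summed to 5.73 and 14.8 in cells with the 3 genes, against 34.7 and 62.5 in other cells. Their part in the result was not tested. By the marker rule given below, 20 of the 69 cells with the 3 genes were homeostatic-marker cells, 42 were marrow-marker cells and 7 were neither, against 81, 241 and 13 of the 335 other cells. Homeostatic-marker cells were 17 of the 51 cells with the 3 genes in the hashtag 4 brain, against 23 of 143 other cells, and 2 of 15 in the hashtag 3 brain, against 20 of 140 other cells.

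**Figure D4:**
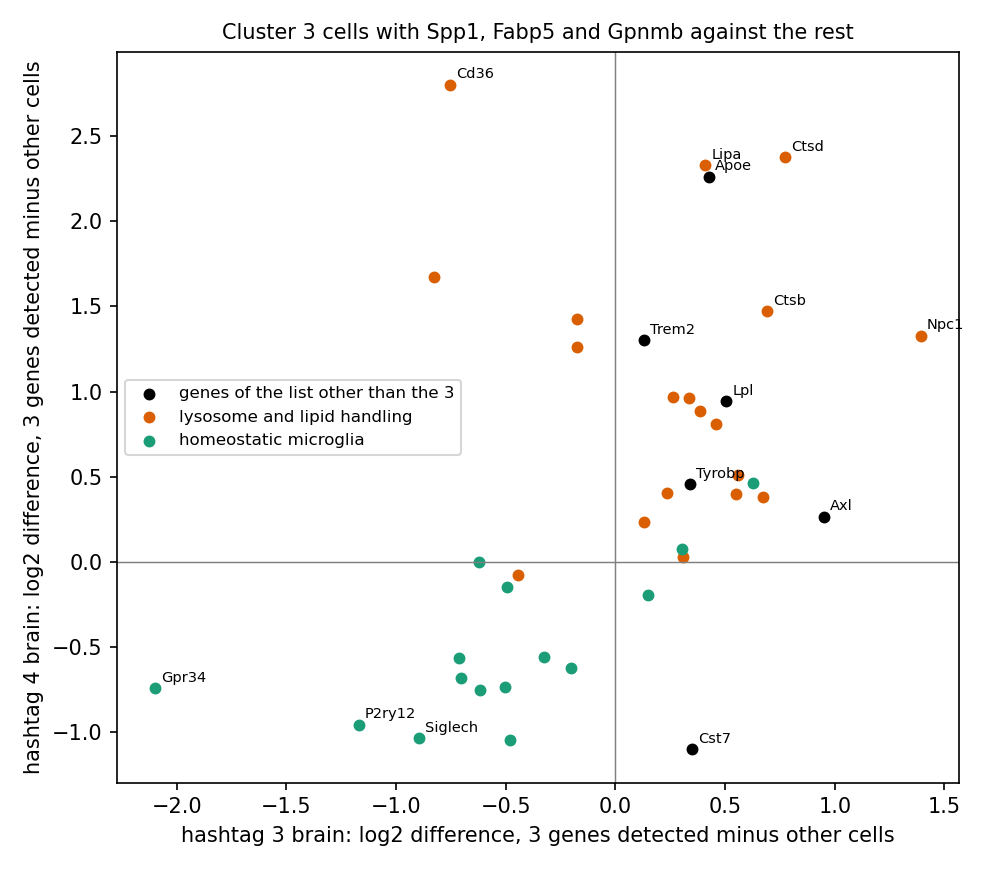
Log2 difference between cluster 3 cells with Spp1, Fabp5 and Gpnmb and other cluster 3 cells, in the hashtag 3 brain (horizontal) and the hashtag 4 brain (vertical), on the log2(mean per 10000 + 0.1) scale. Each point is a gene: most lysosome and lipid genes lie in the upper right part, most homeostatic microglia genes in the lower left, and Cst7 in the lower right.

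To ask which kind of cluster 3 cell carried the genes, cells were divided by markers that hold no listed gene. The markers are RNA of the same cells, so genes that vary with cell kind are likely to differ between the sides. The p-values are therefore not independent of that division. Homeostatic-marker cells had at least 2 UMIs over P2ry12, Tmem119, Cx3cr1, Fcrls, Siglech and Gpr34 and more than over the other set. Marrow-marker cells had at least 2 UMIs over Ly6c2, Ccr2, Ms4a4c, Tgfbi, Plac8, Chil3 and Vcan, genes of blood monocytes and their descendants, and more than over the first set. There were 14, 25, 22 and 40 homeostatic-marker cells, against 6, 7, 124 and 146 marrow-marker cells, in the hashtag 1, 2, 3 and 4 brains. The test was run in the hashtag 3 and 4 brains, which had at least 10 cells of each kind, and again in all 4 brains, an addition made after the cell counts were seen. With 2 brains, limma took the spread of each gene from the trend over all genes rather than from that gene, so a large gap between the 2 brains does not enter a gene's standard error. Changes are on the log2(mean per 10000 + 0.1) scale.

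Trem2 was higher in homeostatic-marker cells of every brain. It averaged 10.7, 12.6, 7.35 and 11.7 UMIs per 10000 in homeostatic-marker cells of the hashtag 1, 2, 3 and 4 brains, against 5.61, 5.74, 3.19 and 4.16 in marrow-marker cells, and the lowest of the first 4 values was above the highest of the others. The log2 difference was 1.33 ± 0.19 (SE, n = 2 brains, limma adjusted p = 2.06e-09), and 1.17 ± 0.18 in all 4 brains (SE, n = 4 brains, limma adjusted p = 0.00147). In the test 85 of 6710 genes (1.27%) were higher and 125 (1.86%) lower at an adjusted p under 0.05, and 3 of the 9 listed genes were higher and 1 lower. In all 4 brains limma called 0.494% of genes higher and 0.464% lower, and 2 of the 9 were higher and 0 lower. The median over all tested genes was -0.05, and that of the 9 was 0.04. Tyrobp, the partner of Trem2, did not pass the test: it averaged 24.7, 22.5, 26.3 and 32.6 in homeostatic-marker cells, against 24.5, 32.0, 27.1 and 31.6 in marrow-marker cells (log2 difference 0.00 ± 0.14, limma adjusted p = 0.998).

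Apoe averaged 64.9, 114, 118 and 285 UMIs per 10000 in homeostatic-marker cells, against 15.5, 79.9, 110 and 101 in marrow-marker cells. It was higher in 4 of 4 brains, but by very different amounts. The log2 difference was 0.11 among hashtag 3 cells, 1.49 among hashtag 4 cells and 0.80 ± 0.11 together (SE, n = 2 brains, limma adjusted p = 5.00e-10), and 1.04 ± 0.20 in all 4 brains (SE, n = 4 brains, limma adjusted p = 0.0118). The gap between these 2 brains was larger than the standard error, which does not include it.

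Spp1 was called on the 2 larger brains and not on all 4. It averaged 0.345, 1.55, 11.1 and 73.2 UMIs per 10000 in homeostatic-marker cells, against 0.84, 2.41, 7.21 and 15.3 in marrow-marker cells, higher in the hashtag 3 and 4 brains and lower in the other 2. The log2 difference was 1.43 ± 0.15 (SE, n = 2 brains, limma adjusted p = 1.18e-17) and 0.30 ± 0.36 in all 4 brains (limma adjusted p = 0.817), while edgeR on the recovered counts of all 4 brains gave 1.34 (adjusted p = 1.30e-05, with 1.59% of genes called higher). In the hashtag 4 brain the highest cell of cluster 3 held 15.8% of its Spp1 UMIs and the 5 highest held 48.3%.

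Fabp5 averaged 1.33, 0, 0.89 and 7.47 UMIs per 10000 in homeostatic-marker cells, against 0, 0, 2.55 and 7.64 in marrow-marker cells. It was lower by the test in 2 brains (log2 difference -0.73 ± 0.22, limma adjusted p = 0.0350), which rests on the hashtag 3 brain, at -1.42 against -0.03 in the hashtag 4 brain. Over all 4 brains the difference was 0.60 (limma adjusted p = 0.780), and edgeR did not call it in 2 brains (log2 difference -0.33, adjusted p = 0.656, with 1.52% of genes called lower). Gpnmb averaged 0.95, 0.16, 0.56 and 5.62 in homeostatic-marker cells, against 0, 0.73, 1.84 and 3.97 in marrow-marker cells, with opposite directions in the hashtag 3 and 4 brains (-1.56 and 0.49) and no call (limma adjusted p = 0.360). Lpl (log2 difference 0.54 ± 0.47), Axl (-0.34 ± 0.33) and Cst7 (0.04 ± 0.51) did not pass the test, with limma adjusted p-values of 0.741, 0.791 and 0.991 and at most 42, 92 and 21 UMIs on any side of a brain.

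**Figure D5:**
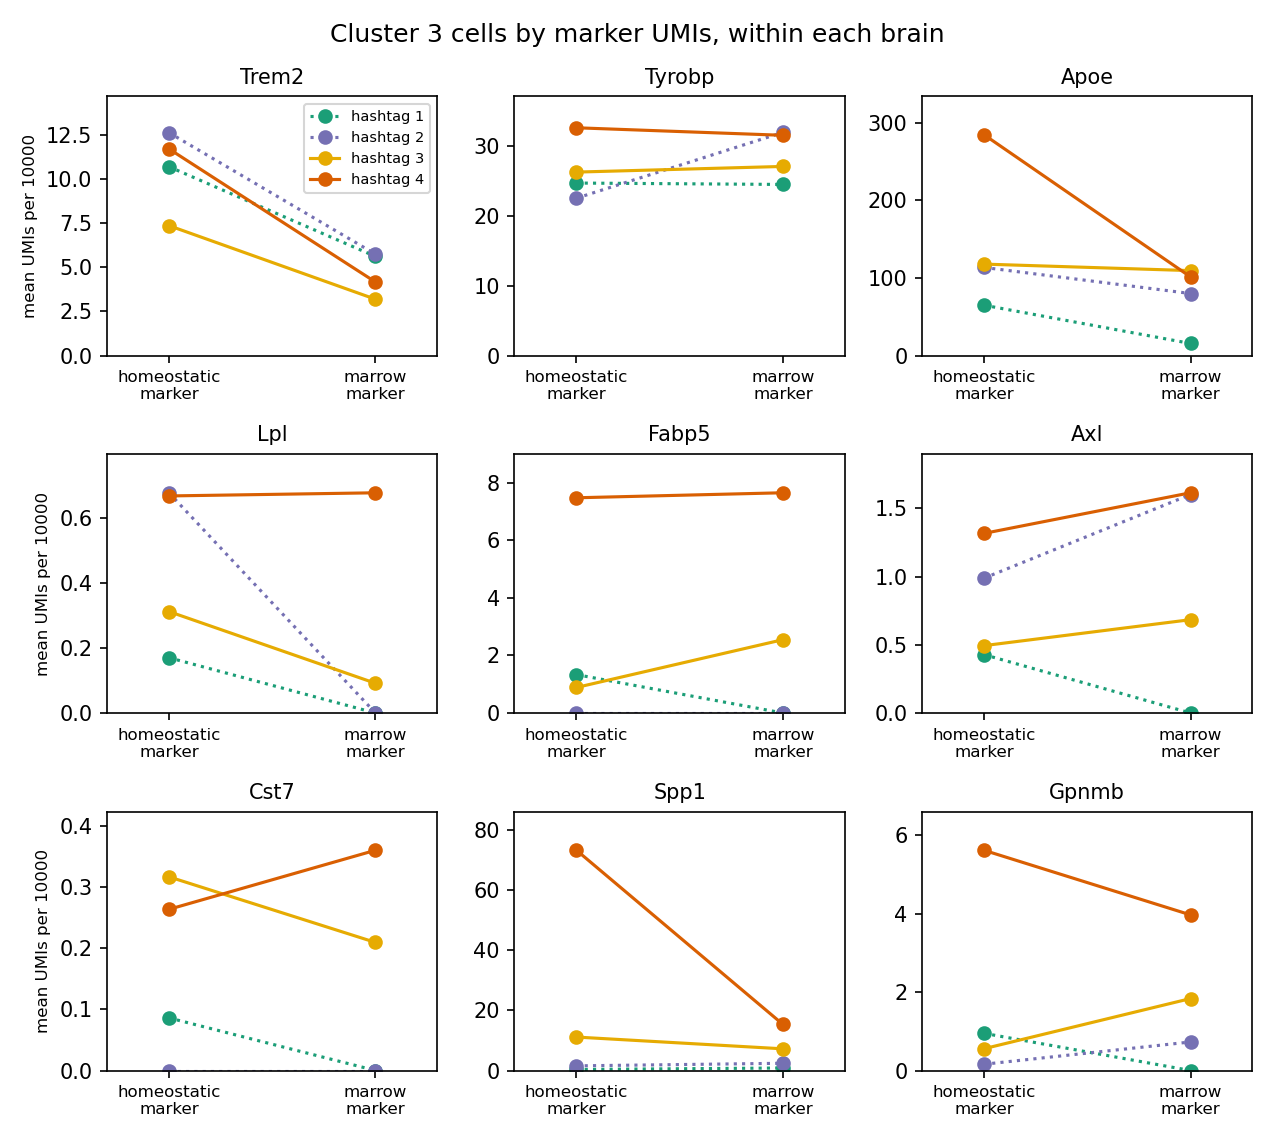
Mean UMIs per 10000 in homeostatic-marker cells (left of each panel) and marrow-marker cells (right) of cluster 3, 1 line per brain; dotted lines are the hashtag 1 and 2 brains, with 6 and 7 marrow-marker cells. Every Trem2 and Apoe line falls to the right, Tyrobp lines are near level except for hashtag 2, and Spp1 falls steeply in the hashtag 4 brain.

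Related genes followed in part. Of the 9 homeostatic genes left after those of the marker rule were taken out, 5 were higher in homeostatic-marker cells, including Cst3, a secreted cystatin (log2 difference 1.27 ± 0.12), and Csf1r, the survival receptor of microglia (0.96 ± 0.21), with limma adjusted p-values of 1.13e-21 and 4.34e-04. In all 4 brains limma called 3 of the 9, and Csf1r did not pass (adjusted p = 0.0879). Of 19 lysosome and lipid genes 2 were higher and none lower, namely Ctsd (1.16 ± 0.15) and the protease Lgmn (0.69 ± 0.15), with limma adjusted p-values of 6.63e-12 and 4.65e-04. Of 19 later disease-associated genes 3 were higher (Cd9, Cd63 and Timp2) and 3 lower (Cd52, Lgals3 and Ccl6). In all 4 brains limma called 1 of the 19 higher and 4 lower, and Cd63 and Timp2 did not pass (adjusted p = 0.0923 and 0.529). Cd9, a membrane tetraspanin, averaged 6.29 and 7.51 in homeostatic-marker cells of the hashtag 3 and 4 brains, against 3.53 and 4.66 in marrow-marker cells. Lgals3, the lectin galectin-3 of macrophages, averaged 9.66 and 17.5 in homeostatic-marker cells of these brains, against 21.6 and 23.7 in marrow-marker cells. Of 12 genes of Trem2 and Tyrobp signalling 1 passed the test, Ms4a6d, which was lower (-0.75 ± 0.20, limma adjusted p = 0.00874). It did not pass with edgeR (adjusted p = 0.0728) or with limma in all 4 brains, where its direction turned (0.24, adjusted p = 0.904). Of 4 TAM receptor and ligand genes 0 passed. Median depth was 3588 and 4217 UMIs in homeostatic-marker cells of these brains, against 3743 and 3852 in marrow-marker cells.

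Antibody tags gave a second view, in which the split used no RNA but the cells were still those of the RNA-based cluster 3. Cluster 3 cells of each brain were divided at the median count of the CD86 tag, a costimulatory protein of activated antigen-presenting cells, or of the CD11b tag, an integrin chain of myeloid cells. The hashtag 3 and 4 brains had at least 20 cells on each side. Cells with high CD86 tags also had high CD45 and CD11b tags: in the hashtag 3 and 4 brains the CD45 median was 9363 and 9453 in CD86-high cells, against 5321 and 5864 in CD86-low cells. RNA depth differed too, with medians of 4333 and 3781 UMIs in CD86-high cells, against 3375 and 4000 in CD86-low cells. For CD11b the medians were 4507 and 4436 UMIs in high cells, against 3410 and 3591 in low cells. The part of depth in the results was not tested. Values below keep that order of brains.

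None of the 9 genes passed the test between CD86-high and CD86-low cells, where limma called 10 of 6679 genes higher (0.15%) and 0 lower (0%), with 397 genes at an unadjusted p under 0.05, and edgeR called 0. Apoe averaged 109 and 102 UMIs per 10000 in CD86-high cells, against 120 and 196 in CD86-low cells (log2 difference -0.54 ± 0.13, limma adjusted p = 0.144, and 2.72e-07 with no filter on low values, a setting that called 36 genes or 0.254% of those tested). Trem2 averaged 3.38 and 4.58 in CD86-high cells, against 4.43 and 7.27 in CD86-low cells (-0.52 ± 0.15, limma adjusted p = 0.406). Spp1 ran opposite ways in the 2 brains, at 7.77 and 18.7 in CD86-high cells, against 7.28 and 37.1 in CD86-low cells.

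None of the 9 passed between CD11b-high and CD11b-low cells by tag count either, where 30 of 6679 genes were higher (0.449%) and 24 lower (0.359%). Spp1 came nearest, averaging 8.16 and 31.5 in CD11b-high cells, against 6.90 and 24.2 in CD11b-low cells (log2 difference 0.31 ± 0.09, limma adjusted p = 0.0583). With UMI counts summed over cells it passed (adjusted p = 0.0327, 0.359% of genes higher), as it did with edgeR in all 4 brains, an addition made after the cell counts were seen (log2 difference 1.07, adjusted p = 5.10e-06, 0.285% of genes higher). It was not called by limma in all 4 brains (2.15, adjusted p = 0.858), by edgeR in 2 (adjusted p = 0.0566), or by limma with pseudocount 1, with no filter on low values or in cells with at least 80% of their own hashtag (adjusted p = 0.102, 0.105 and 0.298). Fcer1g, an adaptor that like Tyrobp carries receptor signals, was the only gene of the related lists that passed (0.25 ± 0.06, limma adjusted p = 0.0141), and it did not pass with edgeR (adjusted p = 0.470) or with limma in all 4 brains (adjusted p = 0.858).

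The picture changed when CD11b was taken as a share of all antibody tags of a cell. Cells with a high share had fewer CD45 tags, with medians of 6041 and 5664, against 8144 and 9938 in low-share cells. Of 6679 genes 41 were then higher (0.614%) and 58 lower (0.868%), and 5 of the 9 listed genes were higher. Gpnmb averaged 2.37 and 8.09 UMIs per 10000 in high-share cells, against 0.93 and 1.44 in low-share cells (log2 difference 1.83 ± 0.21, limma adjusted p = 1.41e-14). Fabp5 averaged 3.47 and 13.02 in high-share cells, against 1.22 and 3.50 in low-share cells (1.65 ± 0.19, limma adjusted p = 2.87e-15). Both genes were higher in both brains.

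Spp1 averaged 6.21 and 50.5 in high-share cells, against 8.83 and 5.32 in low-share cells, so its call (1.36 ± 0.14, limma adjusted p = 4.08e-18) rests on the hashtag 4 brain and has the opposite direction in the other. Apoe averaged 129 and 207 in high-share cells, against 99.7 and 91.0 in low-share cells (0.78 ± 0.08, limma adjusted p = 1.16e-18). Trem2 averaged 4.21 and 7.93 in high-share cells, against 3.61 and 3.92 in low-share cells (0.61 ± 0.18, limma adjusted p = 0.0438). In the hashtag 3 and 4 brains the log2 difference was 0.37 and 1.185 for Apoe, and 0.22 and 0.998 for Trem2. The share split was made in these 2 brains only (SE, n = 2 brains). For each of the 5 called genes the gap between the 2 brains was larger than its standard error. The p-values of this split therefore do not carry the full spread between brains. By tag count the log2 differences of Trem2 and Apoe had been -0.02 and -0.07. Of 19 lysosome and lipid genes 3 were higher and 0 lower, with a median log2 difference of 0.47 against -0.03 over all genes. Tyrobp, Lpl, Axl and Cst7 did not pass.

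Over 35 profiles, each a cluster in a brain with at least 20 cells, the gene outside the list with the profile most like each member was sought among 11818 genes by Pearson's r of log2(mean per 10000 + 0.1). These profiles share a library and differ in depth, so r is a description. It was 0.96 for Trem2 with C1qc, a chain of complement C1q, 0.98 for Tyrobp with Fcer1g, 0.90 for Apoe with Ctsd and 0.84 for Lpl with Fcrls, a gene of microglia. It was 0.87 for Gpnmb with Ctsb, a lysosomal protease, 0.88 for Fabp5 with Ms4a6c, 0.81 for Spp1 with Ifi27l2a and 0.77 for Axl with Ddx21. For Cst7 it was 0.887 with Klrb1f, a lectin receptor gene of natural killer cells, nearly tied with Ffar2 (0.885) and Atp8b4 (0.883). Among the 9 themselves r was highest for Trem2 with Tyrobp (0.86) and lowest for Axl with Apoe (-0.18).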

How the data were processed

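The deposited RNA values are the natural log of 1 plus UMIs per 10000 of a cell, which was read from the values, since every cell's unlogged values sum to 10000; per the submitters' processing notes Cell Ranger 2.1, Seurat 2.3.4 and mm10 were used, in roles not stated. Whole UMI counts were recovered with the deposited UMI totals, and 99.8% of nonzero values came out whole within 0.01. The deposited antibody tag, hashtag and UMI columns are counts per cell, and the deposited mitochondrial value is a fraction of a cell's UMIs. Clusters and hashtag classes are the authors'; how cells were filtered and doublets treated is not stated here, and no doublet caller was run. Clec7a was not analysed.

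Members, lists and contrasts were chosen with earlier results of these data known. All listed genes were named, with the best-correlated gene outside the list and up to 6 called genes of each related list. Within cluster 3, means per cell over each side of a brain were compared with limma 3.58.1 (R 4.3.3). Its settings were trend, pseudocount 0.1, genes in at least 5% of cells, brain as block and Benjamini-Hochberg over all genes. The same sides were compared with edgeR 4.0.16 on recovered counts. Both were first run on simulated data with the same change in every brain, so that run does not test the spread between brains. The block is the animal: both sides of a contrast come from 1 brain. With 2 brains, limma took the spread behind its p-values from the trend over genes, wholly for the marker and CD11b count contrasts and mostly for CD86. Those p-values therefore measure little or none of the spread between brains. All brains belong to 1 run. Genes whose levels differ between clusters were not tested, because the clusters come from the same RNA. The marker classes come from the same RNA too, so the tests between them carry that limit. The depth per cell, 2495 to 43038 UMIs, limits shares of cells with a UMI, which were also computed after thinning to 2495.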

Additional observations from a re-analysis of the deposited data

How the results depend on the processing

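Counts of called genes moved with the settings. Between homeostatic-marker and marrow-marker cells 210 genes were called, 0 without the replicate block (brain left out of the model), 88 in cells with at least 80% of hashtag counts from their own hashtag and 64 with limma in all 4 brains, a setting chosen after seeing the data, where edgeR called 169. For the CD86 tag 10 were called, 36 with no filter on low values and 0 with pseudocount 1, without the replicate block, with edgeR in 2 brains and with limma in all 4, where edgeR called 13. For the CD11b tag 54 were called, 99 with the tag as a share of all antibody tags, 10 in cells with at least 80% of their own hashtag and 0 without the replicate block and with limma in all 4 brains, where edgeR called 37. Without the replicate block the marker calls of Trem2, Apoe, Spp1 and Fabp5 were lost too (limma adjusted p = 0.483, 0.724, 0.749 and 0.871). Of 243 tested log2 differences of single genes under the other settings, 190 kept direction and side of the threshold, 9 lost the call, 6 gained it and 38 changed sign, 35 of these with no call under either setting. The 3 with a call were Fabp5 between marker classes in all 4 brains (0.60, against -0.73) and, for CD11b as a tag share, Trem2 (0.61, against -0.02) and Apoe (0.78, against -0.07). Between marker classes, limma in all 4 brains also turned Axl (0.27), Gpnmb (0.16) and Tyrobp (-0.12), at least 3 marker UMIs Tyrobp (-0.022) and the 80% hashtag limit Cst7 (-0.12). For CD86, limma in all 4 brains turned Tyrobp (0.18), Apoe (0.12), Lpl (1.10), Cst7 (0.52), Spp1 (1.79) and Gpnmb (1.83), and edgeR there Tyrobp (0.17), Apoe (0.16), Spp1 (0.58) and Gpnmb (0.41). CD86 Fabp5 turned with summed counts (-0.0033), edgeR (-0.078), the 80% limit (-0.068) and the tag share (-0.34), and CD86 Cst7 with pseudocount 1 (0.0070), the 80% limit (0.12) and the tag share (0.14). For CD11b, limma in all 4 brains turned Trem2 (0.20), Apoe (0.33) and Lpl (0.25), and edgeR there Trem2 (0.16) and Apoe (0.39). CD11b Fabp5 turned with pseudocount 1 (-0.016), summed counts (-0.081), edgeR (-0.26) and the 80% limit (-0.075), Trem2 with summed counts (0.0063), Cst7 with summed counts (-0.020) and the tag share (-0.99), and Axl with the tag share (0.13). The cause of these changes was not tested. With 2 brains in a contrast, leaving either out leaves no residual degrees of freedom, so it gives a value per brain and no test; 14 of these 54 values had the other sign. Few cells limit the hashtag 1 and 2 brains.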
